A study of Mus musculus with 4 samples.

Results

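Venous endothelial cells of dystrophic mouse muscle were described from single-cell RNA sequencing of mononuclear cells, which held 247 of them among 31077 cells that passed the filters. A cell was taken as venous when it carried at least 2 unique molecular identifiers (UMIs, each counting 1 captured transcript) of Cdh5 and Pecam1 together and at least 1 UMI of Ackr1 and Selp together. It also had at most 1 UMI of the arterial genes Sema3g, Gja5 and Stmn2 and none of Prox1, Mmrn1, Pdgfra or Ptprc. These 11 genes chose the cells, so their levels are given as a description and none of them was tested. The 4 libraries came from quadriceps and diaphragm of mdx5cv/Ccr2-/- mice and of mdx5cv mice at 14 weeks of age, with 1 library for each genotype and muscle. The mdx5cv allele, a mutation of dystrophin, is carried by all 4 groups, so the mdx5cv libraries are dystrophic controls and no healthy muscle is compared. The mdx5cv/Ccr2-/- mice additionally lack Ccr2, the chemokine receptor that guides blood monocytes into tissue. How many animals gave cells to a library is not stated in the labels. Venous cells numbered 151 in mdx5cv/Ccr2-/- quadriceps, 66 in mdx5cv quadriceps, 15 in mdx5cv/Ccr2-/- diaphragm and 15 in mdx5cv diaphragm.

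Postcapillary venules and small veins are the part of the vascular tree where blood leukocytes roll, adhere and cross into tissue. Their endothelium stores P-selectin (Selp) and von Willebrand factor (Vwf) in Weibel-Palade bodies and carries Ackr1, an atypical receptor that binds chemokines without signalling through G proteins. Muscle capillaries are instead specialised for lipid uptake, and arterial endothelium is patterned by Notch signalling.

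The libraries held 56399477 to 92189580 UMIs, of which venous cells contributed 1103029 in mdx5cv/Ccr2-/- quadriceps, 587510 in mdx5cv quadriceps, 116682 in mdx5cv/Ccr2-/- diaphragm and 78528 in mdx5cv diaphragm. Levels are given as CPM, UMIs of a gene scaled to a fixed total of the UMIs summed over the cells of a library, so 3 counts, the floor for detection, are worth 2.72, 5.11, 25.7 and 38.2 CPM in venous cells of these libraries. Ccr2 stood at 15.3 CPM over all cells of mdx5cv/Ccr2-/- quadriceps and 248 CPM in mdx5cv quadriceps, and at 8.85 CPM in mdx5cv/Ccr2-/- diaphragm and 132 CPM in mdx5cv diaphragm. Venous cells had 0 Ccr2 UMIs in both mdx5cv/Ccr2-/- libraries, 3 in mdx5cv quadriceps and 0 in mdx5cv diaphragm. Any pair of libraries shared 9 to 30 cell barcodes, and no barcode was a venous cell in both. A single cell made up 13.0% of the venous UMIs of mdx5cv/Ccr2-/- diaphragm and 12.2% of those of mdx5cv diaphragm.

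The label was checked on genes that the rule did not use, against 3820 other blood endothelial cells that met the same rule except for having no UMI of Ackr1 or Selp. Vwf was at 745, 602, 943 and 624 CPM in venous cells of mdx5cv/Ccr2-/- quadriceps, mdx5cv quadriceps, mdx5cv/Ccr2-/- diaphragm and mdx5cv diaphragm, against 38.7, 42.4, 57.9 and 38.7 CPM in other blood endothelial cells of the same libraries. The lowest venous library was above the highest of the others, and the log2 fold change was 4.13 ± 0.12 (SE, n = 4 libraries, adjusted p = 5.74e-23 by edgeR's quasi-likelihood test with Benjamini-Hochberg adjustment, which also gives the adjusted p-values below). The 4 libraries serve as replicates here, across genotypes and muscles, and nothing states how many animals they stand for, so the p-values measure the spread between these libraries. Of 15 tested genes listed as venous, 13 rose, against 9.1% of all 9018 genes tested that were higher and 9.25% that were lower in venous cells. The gene lists were chosen with earlier results of these data known, so this count describes the cells and is no independent support for the label. Some of these genes, such as Vwf and Plvap, are counted again in lists below. Nr2f2, the transcription factor of vein identity, averaged 269 ± 92.3 CPM in venous and 46.1 ± 17.6 CPM in other blood endothelial cells (SD, n = 4 libraries, as for all means below). Ephb4, the receptor on the venous side of ephrin signalling, averaged 162 ± 42.5 CPM in venous and 114 ± 24.8 CPM in other blood endothelial cells and rose by a log2 fold change of 0.50 ± 0.13 (adjusted p = 0.00357). Aplnr, the apelin receptor, averaged 332 ± 84.8 CPM in venous and 349.6 ± 92.1 CPM in other blood endothelial cells and did not pass the test (adjusted p = 0.957).

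Among the genes of the rule, Ackr1 was at 393.5, 356, 223 and 369 CPM and Selp at 438, 451, 334 and 777 CPM in venous cells of mdx5cv/Ccr2-/- quadriceps, mdx5cv quadriceps, mdx5cv/Ccr2-/- diaphragm and mdx5cv diaphragm. Of the 247 cells, 35 had Ackr1 UMIs alone, 94 had Selp UMIs alone and 118 had both. The strength of this signal was followed as a description. Lrg1, a secreted leucine-rich glycoprotein, was at 421 CPM in the 68 cells with 1 UMI of Ackr1 and Selp, at 552 CPM in the 26 cells with 2, at 802 CPM in the 67 cells with 3 to 5 and at 1277 CPM in the 86 cells with 6 or more, against 30.5 CPM in other blood endothelial cells. Rgcc, a gene of capillaries, was at 272, 128, 59.1 and 22.8 CPM in the same 4 classes, against 708 CPM in other blood endothelial cells. Cells just inside the rule thus stood between other blood endothelial cells and the cells with most UMIs for both genes. Just outside it, the limit on arterial genes removed 29, 12, 4 and 8 of the 205, 85, 26 and 24 endothelial cells with an Ackr1 or Selp UMI in mdx5cv/Ccr2-/- quadriceps, mdx5cv quadriceps, mdx5cv/Ccr2-/- diaphragm and mdx5cv diaphragm. Exactly 2 UMIs of Cdh5 and Pecam1 were found in 6, 1, 0 and 1 venous cells of these libraries.

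**Figure D1:**
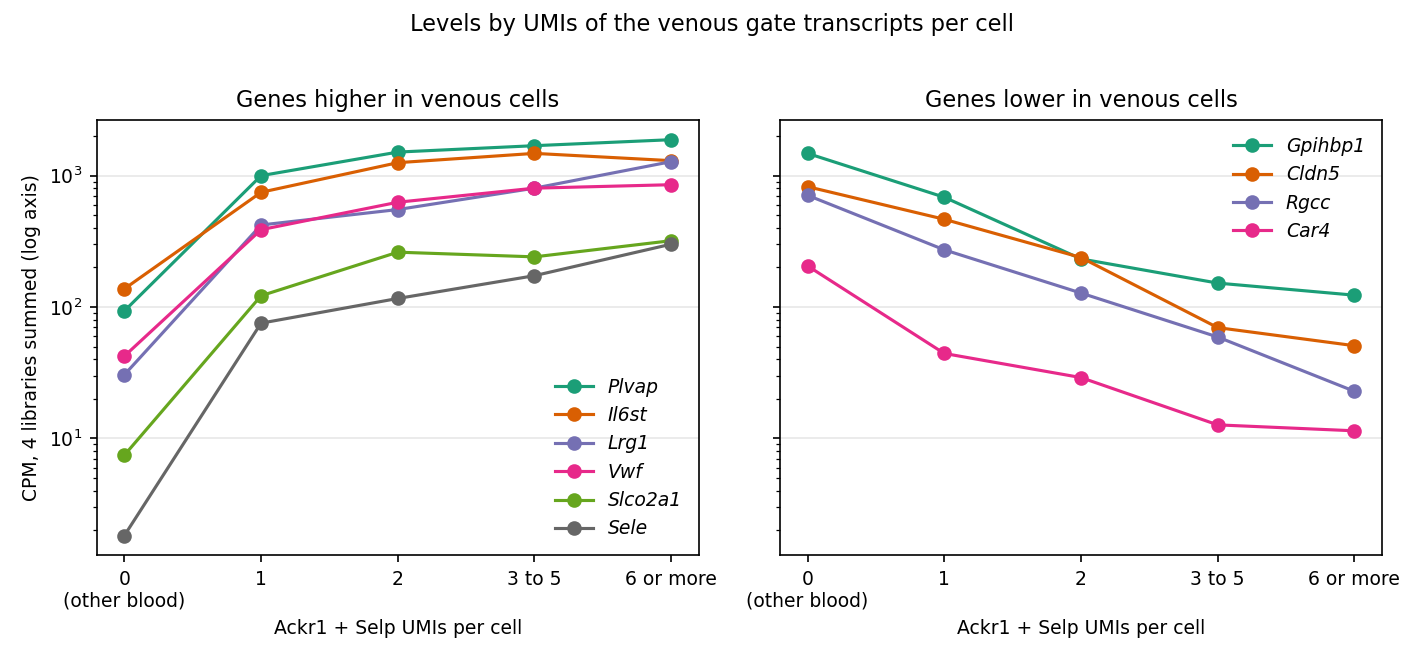
Levels of 6 genes higher and 4 genes lower in venous cells, in CPM summed over the 4 libraries on a log axis, against the number of Ackr1 and Selp UMIs per cell. Points at 0 UMIs are the 3820 other blood endothelial cells, where Sele stands at 1.82 CPM, against 300.6 CPM in cells with 6 or more UMIs.

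Ackr1 UMIs were also found in cells outside the rule. Of Pdgfra-positive cells, 2.85%, 8.68%, 2.19% and 2.04% had one in mdx5cv/Ccr2-/- quadriceps, mdx5cv quadriceps, mdx5cv/Ccr2-/- diaphragm and mdx5cv diaphragm. Their median depths were 14851, 14858, 10556 and 7314 UMIs. Of cells marked by Ptprc, 0.0935%, 0.625%, 0.282% and 0.362% had an Ackr1 UMI in these libraries. Selp UMIs were found in 0.0891%, 0.347%, 0.159% and 0.0409% of the Pdgfra-positive cells. The source of these UMIs was not tested. After thinning every cell to 2000 UMIs, 65.3%, 56.5%, 46.7% and 57.1% of venous cells had a Vwf UMI, against 6.46%, 6.2%, 8.8% and 6.5% of other blood endothelial cells and at most 0.0639% of Pdgfra-positive cells. Without thinning the shares were 87.4%, 84.8%, 100% and 80.0% of venous cells and 12.2%, 13.0%, 14.7% and 9.96% of other blood endothelial cells. Leukocytes marked by Ptprc had a Vwf UMI in 9.25%, 5.55%, 7.05% and 3.5% of cells without thinning, at median depths of 10729.5, 11348, 9758 and 7270 UMIs. The venous shares were above all of these.

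Sele encodes E-selectin, the rolling receptor that activated endothelium makes on demand, and had the largest rise among the genes named by the rule. It was at 196, 209, 129 and 242 CPM in venous cells of mdx5cv/Ccr2-/- quadriceps, mdx5cv quadriceps, mdx5cv/Ccr2-/- diaphragm and mdx5cv diaphragm, against 2.396, 1.17, 0.399 and 2.73 CPM in other blood endothelial cells. The groups did not overlap, as for 6.73% of the genes tested, and the log2 fold change was 6.83 ± 0.22 (adjusted p = 4.85e-22). A Sele UMI was present in 43.7%, 40.9%, 33.3% and 46.7% of venous cells of these libraries. On GRCm38, Sele lies on chromosome 1 at 164048234 to 164057677 and Selp at 164115264 to 164150026, both on the plus strand with 57586 bases between them. The 250 bases before each start site, from RefSeq on GRCm38.p6, are shown. Both of these neighbouring selectin genes were higher in venous than in other blood endothelial cells, Selp by the rule itself. Capitals mark AP-1 matches (TGANTCA) and GATA matches (GATAA), searched on both strands, and none of these matches overlap.
Sele promoter, chr1:164047984-164048233, plus strand: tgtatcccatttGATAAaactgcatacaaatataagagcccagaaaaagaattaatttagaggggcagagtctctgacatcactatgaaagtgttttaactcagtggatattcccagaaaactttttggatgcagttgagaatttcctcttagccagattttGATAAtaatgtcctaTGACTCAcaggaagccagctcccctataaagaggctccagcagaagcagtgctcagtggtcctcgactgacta
Selp promoter, chr1:164115014-164115263, plus strand: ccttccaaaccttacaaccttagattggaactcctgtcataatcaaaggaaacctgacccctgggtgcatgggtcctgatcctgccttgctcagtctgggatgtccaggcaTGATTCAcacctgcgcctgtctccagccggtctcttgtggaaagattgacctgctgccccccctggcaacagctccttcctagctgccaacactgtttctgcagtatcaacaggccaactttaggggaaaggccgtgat
An AP-1 match began at position -73 from the Sele start site and at position -139 from the Selp start site, and 6.75% of 32851 RefSeq windows of this length hold one. GATAA matches began at -238 and -88 in the Sele window, and 22.6% of windows hold one. The NF-kappaB consensus searched was GGGRNWYYCC, with R for A or G, W for A or T and Y for C or T. It had no exact match in either window and is held by 3.9% of windows. Sites that differ from it were not searched.

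Across all genes, 821 were higher and 834 lower in venous than in other blood endothelial cells at an adjusted p under 0.05. Lrg1 was at 964, 764, 823 and 815 CPM in venous cells of mdx5cv/Ccr2-/- quadriceps, mdx5cv quadriceps, mdx5cv/Ccr2-/- diaphragm and mdx5cv diaphragm, against 33.1, 32.9, 24.3 and 19.1 CPM in other blood endothelial cells. The spread over venous libraries was small beside that gap, and the log2 fold change was 4.97 ± 0.13 (adjusted p = 4.08e-24). Slco2a1, the prostaglandin transporter, was at 274, 197, 283 and 191 CPM in venous and 9.04, 7.98, 3.99 and 2.73 CPM in other blood endothelial cells, a log2 fold change of 5.14 ± 0.17. Ptgs1, which encodes the prostaglandin-forming enzyme cyclooxygenase 1, also rose, at 225 ± 50.8 CPM in venous and 34.6 ± 8.86 CPM in other blood endothelial cells. Plvap, the protein of the diaphragms that span caveolae and fenestrae, averaged 1528 ± 219.5 CPM in venous and 83.9 ± 31.4 CPM in other blood endothelial cells. Both groups were apart in every library for each of these genes.

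Among the remaining genes named for the largest rises, Chp2, a calcineurin B homologous protein, averaged 252 ± 60.5 CPM in venous and 5.93 ± 4.14 CPM in other blood endothelial cells. Lepr, the leptin receptor, averaged 115 ± 53.1 CPM in venous and 4.07 ± 3.07 CPM in other blood endothelial cells, and Lbp, which binds lipopolysaccharide, averaged 81.9 ± 16.5 CPM in venous and 4.79 ± 3.78 CPM in other blood endothelial cells. Cadm3, a cell adhesion molecule, and Bst1, the surface enzyme CD157, rose by log2 fold changes of 6.66 ± 0.34 and 4.99 ± 0.35. Syt15, Cmah and Enpp6 rose by log2 fold changes of 5.34 ± 0.30, 5.16 ± 0.30 and 5.04 ± 0.34. Myrip, which links Rab27a-bearing organelles to myosin, was at 51.7, 56.2, 17.1 and 38.2 CPM in venous cells and at 0.545 to 1.596 CPM in other blood endothelial cells.

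**Figure D2:**
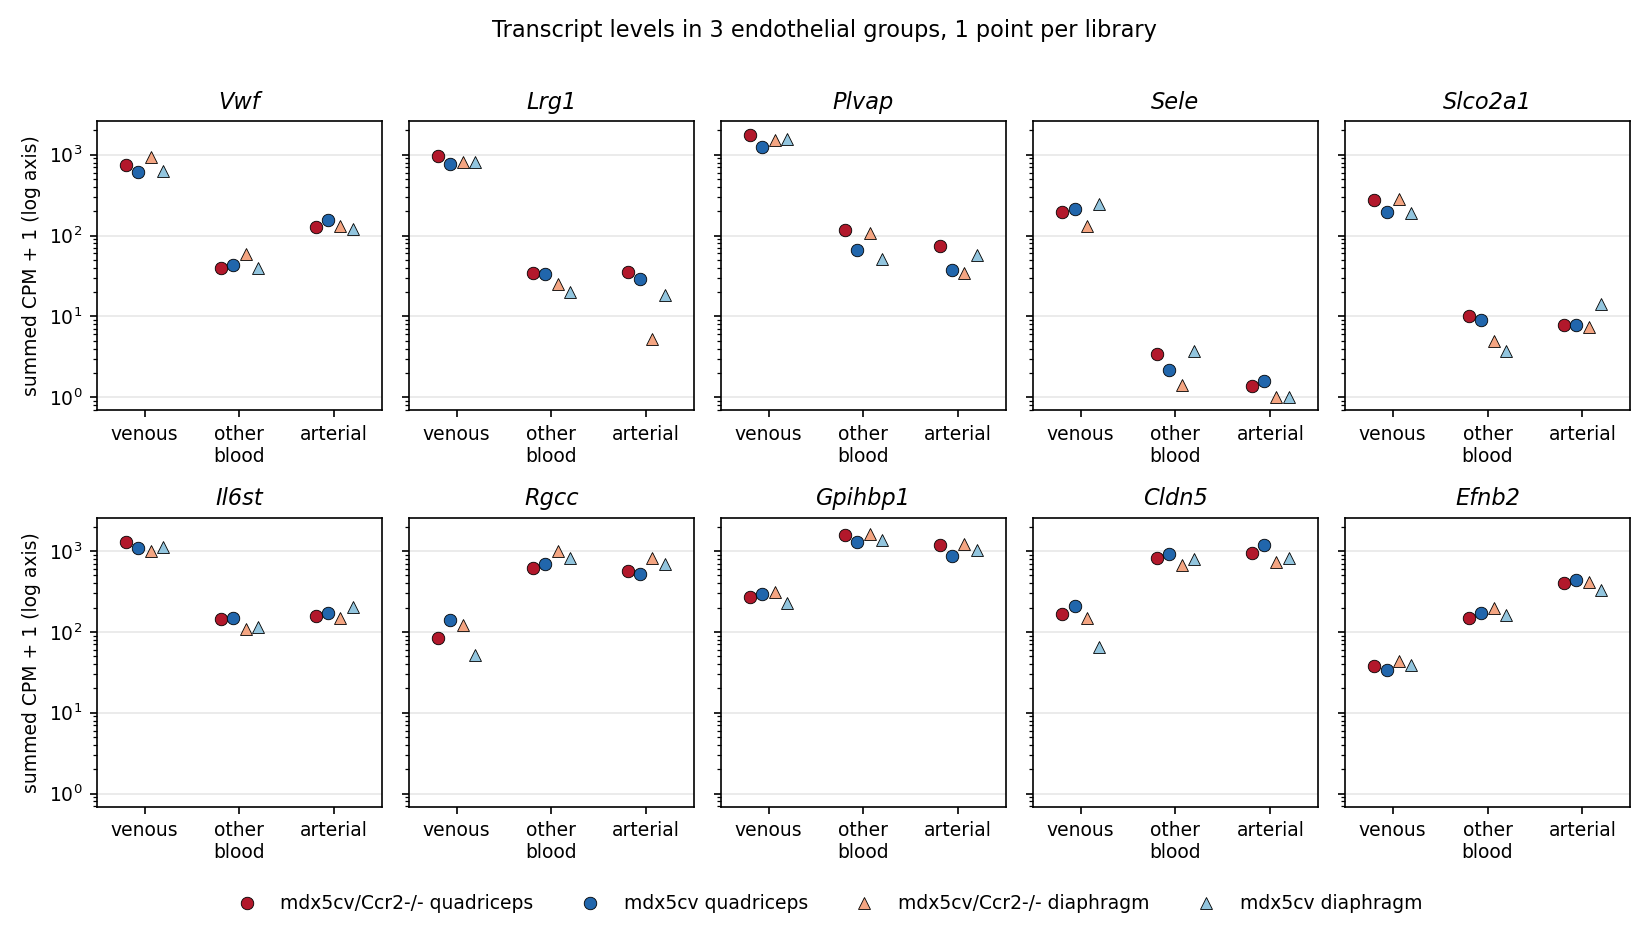
Summed CPM plus 1 on a log axis for 10 genes in venous, other blood and arterial endothelial cells, with 1 point for each of the 4 libraries. The venous points of Vwf, Lrg1, Plvap, Sele, Slco2a1 and Il6st lie above every point of both other groups, and those of Rgcc, Gpihbp1, Cldn5 and Efnb2 lie below them.

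These counts moved with scaling and depth. With scaling by total UMIs alone, 675 genes were higher and 1106 lower, and the median log2 fold change of all genes was -0.124, against -0.014 with the trimmed mean scaling used otherwise. Venous cells had medians of 7274, 9273, 7577 and 5674 UMIs in mdx5cv/Ccr2-/- quadriceps, mdx5cv quadriceps, mdx5cv/Ccr2-/- diaphragm and mdx5cv diaphragm, against 4496, 4370, 4060 and 2571.5 UMIs in other blood endothelial cells. With every cell thinned to 2000 UMIs, 324 genes were higher and 349 lower of 6134 tested. Without mdx5cv/Ccr2-/- quadriceps 458 were higher and 462 lower, and without mdx5cv quadriceps 526 were higher and 540 lower. With both diaphragm libraries left out, a choice made after seeing the data, 1058 were higher and 1087 lower.

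Among 14 tested genes of leukocyte adhesion and diapedesis, 3 rose and 4 fell, with a median log2 fold change of -0.068. The 3 that rose were the inducible receptors Sele, Vcam1 and Icam1. Vcam1, which binds the integrin VLA-4 of leukocytes, was at 179, 303, 308 and 471 CPM in venous cells of mdx5cv/Ccr2-/- quadriceps, mdx5cv quadriceps, mdx5cv/Ccr2-/- diaphragm and mdx5cv diaphragm, against 22.8, 18.7, 31.1 and 25.6 CPM in other blood endothelial cells. Icam1, a ligand of leukocyte beta-2 integrins, was at 132, 95.3, 206 and 293 CPM in venous and 19.4, 18.5, 36.7 and 42 CPM in other blood endothelial cells of these libraries. Neither gene overlapped between the groups. Cd44, Jam3, Itga6 and Podxl fell, and Jam3, a junctional adhesion molecule, averaged 22.2 ± 4.12 CPM in venous and 78.6 ± 7.95 CPM in other blood endothelial cells. Esam, another adhesion molecule of endothelial junctions, averaged 598 ± 69.9 CPM in venous and 614 ± 28.2 CPM in other blood endothelial cells and did not pass the test.

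Of 26 tested chemokines, cytokines and their receptors, 13 rose and 4 fell, with 9 and 2 by DESeq2 and 8 and 2 of 23 after thinning. Il6st, the shared signalling subunit gp130 of the interleukin 6 family, was at 1302, 1081, 1011 and 1108 CPM in venous cells of mdx5cv/Ccr2-/- quadriceps, mdx5cv quadriceps, mdx5cv/Ccr2-/- diaphragm and mdx5cv diaphragm, against 145, 149, 106 and 113 CPM in other blood endothelial cells (log2 fold change 3.20 ± 0.11, adjusted p = 1.28e-21). Lifr, which pairs with Il6st to bind leukaemia inhibitory factor, averaged 424 ± 82.6 CPM in venous and 116 ± 21.1 CPM in other blood endothelial cells. Osmr and Il6ra, the receptor chains for oncostatin M and interleukin 6, rose by log2 fold changes of 0.47 ± 0.15 and 1.75 ± 0.49. Il6 itself rose at a low level, with 20.9, 11.9, 51.4 and 38.2 CPM in venous cells and 2.73 to 4.39 CPM in other blood endothelial cells.

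Receptors for other inflammatory signals rose as well. Il1r1, the interleukin 1 receptor, averaged 158 ± 69.5 CPM in venous and 32.7 ± 5.48 CPM in other blood endothelial cells. Tnfrsf1a, the main receptor of tumour necrosis factor, averaged 230 ± 26.1 CPM in venous and 109.8 ± 15.7 CPM in other blood endothelial cells. Il13ra1, a chain of the receptor for interleukins 4 and 13, averaged 80.1 ± 12.8 CPM in venous and 24.6 ± 2.78 CPM in other blood endothelial cells, and Il4ra and Tnfrsf1b passed the test too. Among ligands, the macrophage growth factor Csf1 averaged 45.8 ± 15.3 CPM in venous and 24.7 ± 4.69 CPM in other blood endothelial cells, and Cxcl16 and Cxcl10 rose. The chemokine Cxcl12 fell, at 446, 552, 643 and 357 CPM in venous and 1106, 1254, 1604 and 1370 CPM in other blood endothelial cells. Ccl2, the main ligand of Ccr2, was at 0.907, 10.2, 0 and 0 CPM in venous cells and 9.97 to 17.9 CPM in other blood endothelial cells. Thus 3 of 4 venous libraries were under their floor. Its log2 fold change was -1.86 ± 0.57 (adjusted p = 0.01799), but DESeq2 did not call it.

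Genes of Weibel-Palade bodies rose at 4 of 12 tested and fell at 1, and 2 of 9 rose after thinning. Besides Vwf these were Edn1, Ece1 and Rab27a. Edn1, the endothelin 1 precursor, was at 60.7, 51.1, 59.99 and 50.9 CPM in venous and 10.7, 11.7, 28.3 and 16.4 CPM in other blood endothelial cells, and Ece1, which processes it, averaged 476 ± 135 CPM in venous and 333 ± 52.9 CPM in other blood endothelial cells. Rab27a, the small GTPase on these organelles, averaged 40.4 ± 11.2 CPM in venous and 11.3 ± 4.704 CPM in other blood endothelial cells. The tetraspanin Cd63 fell, at 67.05 ± 16.3 CPM in venous and 114 ± 51.8 CPM in other blood endothelial cells.

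Coagulation and platelet control genes rose at 9 of 16 tested and fell at 1, the thrombin receptor F2r. With scaling by total UMIs alone 6 of the 16 rose, and after thinning 5 of 12. Procr, the receptor of the anticoagulant protein C, averaged 53.3 ± 10.1 CPM in venous and 10.6 ± 4.56 CPM in other blood endothelial cells. Entpd1, which degrades extracellular ATP and ADP, averaged 387 ± 53.1 CPM in venous and 106 ± 26.8 CPM in other blood endothelial cells, and Tfpi, the inhibitor of the tissue factor pathway, averaged 31.9 ± 5.83 CPM in venous and 14.1 ± 0.696 CPM in other blood endothelial cells. The procoagulant factor F8 rose too, at 20.3 ± 15.03 CPM in venous and 6.499 ± 3.33 CPM in other blood endothelial cells. Thbd, thrombomodulin, averaged 171 ± 67.8 CPM in venous and 154 ± 25.9 CPM in other blood endothelial cells and did not pass the test.

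Of 10 capillary markers tested, 7 fell and none rose at this threshold. Gpihbp1, which anchors lipoprotein lipase on capillaries, was at 266, 289, 308 and 229 CPM in venous cells of mdx5cv/Ccr2-/- quadriceps, mdx5cv quadriceps, mdx5cv/Ccr2-/- diaphragm and mdx5cv diaphragm, against 1559, 1310, 1602 and 1353 CPM in other blood endothelial cells (log2 fold change -2.30 ± 0.11, adjusted p = 4.71e-17). Car4, a carbonic anhydrase, averaged 25.5 ± 9.54 CPM in venous and 223 ± 51.2 CPM in other blood endothelial cells. In the list of lipid uptake 6 of 11 fell and 1 rose, Slc27a3, a member of the fatty acid transport family, and with both diaphragm libraries left out 3 of 12 rose. Of the falls, Gpihbp1, Tcf15, Cd300lg and Cd36 were already counted as capillary markers. Lpl, lipoprotein lipase, averaged 184 ± 60.6 CPM in venous and 1086 ± 153 CPM in other blood endothelial cells. Fabp4, the fatty acid binding protein with the highest level of the list, averaged 15900 ± 495 CPM in venous and 18040 ± 2087 CPM in other blood endothelial cells and did not pass the test. The fatty acid receptor Cd36 fell, at 1860 ± 218 CPM in venous and 3238 ± 513 CPM in other blood endothelial cells.

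Junction and permeability genes fell at 8 of 18 and rose at 4, and with scaling by total UMIs alone 11 fell, while after thinning 8 fell and 1 rose. Cldn5, the main claudin of endothelial tight junctions, was at 164, 206, 146 and 63.7 CPM in venous and 814, 928, 673 and 788 CPM in other blood endothelial cells (log2 fold change -2.23 ± 0.14). Tjp1, a tight junction scaffold, averaged 272 ± 55.7 CPM in venous and 508 ± 49.4 CPM in other blood endothelial cells, and Afdn, a scaffold of adherens junctions, averaged 259 ± 85.3 CPM in venous and 753 ± 84.1 CPM in other blood endothelial cells. Cav1, which forms caveolae, averaged 1361 ± 228 CPM in venous and 2652 ± 321 CPM in other blood endothelial cells and fell. Tek, the angiopoietin receptor, averaged 301 ± 42.5 CPM in venous and 205 ± 19.3 CPM in other blood endothelial cells and rose, as did Plvap, Cavin3 and Ptprb.

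Of 18 tested genes of Notch signalling and the arterial programme, 11 fell and 1 rose. Efnb2, the arterial ephrin, was at 37.2, 32.3, 42.9 and 38.2 CPM in venous and 148, 168, 198 and 163 CPM in other blood endothelial cells, and the groups did not overlap, as for 12.9% of genes tested that were lower in all venous values. The Notch ligand Dll4 averaged 17.9 ± 15.7 CPM in venous and 75.3 ± 4.79 CPM in other blood endothelial cells, and the receptor Notch4 averaged 11.9 ± 9.08 CPM in venous and 71.2 ± 12.3 CPM in other blood endothelial cells. The gene that rose was Dll1, another Notch ligand, at 77.4 ± 14 CPM in venous and 24.1 ± 4.82 CPM in other blood endothelial cells. In the list of VEGF, angiopoietin and apelin, 5 of 14 fell and 3 rose, and after thinning 2 of 11 fell and 1 rose. Kdr, the main VEGF receptor, averaged 361 ± 119 CPM in venous and 925 ± 132 CPM in other blood endothelial cells, while Nrp2, a coreceptor, averaged 537 ± 99.8 CPM in venous and 311 ± 36.3 CPM in other blood endothelial cells and rose. Pgf, placental growth factor, had 0 UMIs in venous cells and 446 in other blood endothelial cells and was at least 15-fold lower, taking 3 counts over all venous cells as the floor.

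In the BMP and TGF-beta list 6 of 16 rose and 5 fell, with 6 and 2 by DESeq2 and 3 and 3 of 14 after thinning, and the median log2 fold change of 0.053 turned to -0.057 with scaling by total UMIs alone. The ligand Bmp4 rose, at 100.1 ± 20.04 CPM in venous and 15.7 ± 5.39 CPM in other blood endothelial cells, and the ligand Bmp6 fell, at 22.8 ± 10.4 CPM in venous and 67.5 ± 8.78 CPM in other blood endothelial cells. Eng, a coreceptor, averaged 703 ± 69.9 CPM in venous and 334 ± 43.8 CPM in other blood endothelial cells and rose.

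Basement membrane and matrix genes changed in both directions, with 8 of 22 higher and 12 lower, and 8 and 6 after thinning. Col4a1, a collagen of basement membranes, was at 921, 984, 1037 and 497 CPM in venous cells of mdx5cv/Ccr2-/- quadriceps, mdx5cv quadriceps, mdx5cv/Ccr2-/- diaphragm and mdx5cv diaphragm, against 2894, 2281, 2129 and 1953 CPM in other blood endothelial cells. Sparc, which binds collagen, averaged 1385 ± 186 CPM in venous and 3335 ± 634 CPM in other blood endothelial cells and fell. Eln, which encodes elastin, rose, at 481, 313, 419.9 and 242 CPM in venous and 50.5, 44.5, 41.1 and 76.9 CPM in other blood endothelial cells (log2 fold change 3.04 ± 0.15). Fbln2, Col15a1, Col18a1 and Vcan rose too. Fibroblast markers summed to 199.5, 149.8, 548.5 and 229 CPM in venous cells and to 1597, 1181, 1119 and 4364 CPM in other blood endothelial cells, with 7 of 8 tested markers lower. With cells that carried transcripts of other lineages left out, 9 matrix genes were higher and 10 lower. The part of these fibroblast transcripts in the matrix result was not tested further.

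Targets of NF-kappaB rose at 9 of 18 and fell at 1, which was Ccl2. By DESeq2 9 of 18 rose and none fell, and after thinning 6 of 11 rose and none fell. The lists overlap: Sele, Vcam1 and Icam1 were also counted with the adhesion genes, and Csf1 and Ccl2 with the cytokines. Traf1, an adaptor of tumour necrosis factor receptors, averaged 43.96 ± 23.2 CPM in venous and 4.78 ± 0.583 CPM in other blood endothelial cells. Bcl3, a nuclear regulator of NF-kappaB, averaged 46.4 ± 10.49 CPM in venous and 17.5 ± 2.92 CPM in other blood endothelial cells, and Nfkbia, its inhibitor, averaged 378 ± 107 CPM in venous and 256 ± 44.9 CPM in other blood endothelial cells. Immediate early genes rose at 13 of 19 and fell at 1, Klf6, and after thinning to 2000 UMIs 11 of 18 rose, while DESeq2 called 7 of 19 higher. Ier3 was at 142, 158, 703 and 904 CPM in venous cells of mdx5cv/Ccr2-/- quadriceps, mdx5cv quadriceps, mdx5cv/Ccr2-/- diaphragm and mdx5cv diaphragm, against 37.1, 34.2, 109 and 124 CPM in other blood endothelial cells. Heat shock genes rose at 7 of 11 and none fell at this threshold, also after thinning, while DESeq2 called 4 higher and removal of doublets gave 7 higher and 1 lower. Hsph1, a chaperone, was at 74.3, 42.5, 94.3 and 267 CPM in venous and 23.7, 21.01, 44.7 and 84.01 CPM in other blood endothelial cells, so both kinds of cell stood higher in the diaphragm libraries for both genes.

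Of 22 tested type I interferon response genes, 1 rose and 6 fell, and 10 fell with at least 2 Ackr1 and Selp UMIs. Rsad2, an antiviral enzyme, was at 56.2, 93.6, 51.4 and 12.7 CPM in venous and 252, 259.7, 276 and 295 CPM in other blood endothelial cells. The gene that rose was Ifitm3, an antiviral membrane protein, at 2552 ± 72.3 CPM in venous and 1951 ± 125 CPM in other blood endothelial cells. Of 20 interferon-gamma response genes Gbp4 and Iigp1 rose and Cd274, which encodes PD-L1, fell, and 4 rose with at least 2 Ackr1 and Selp UMIs or of 21 with both diaphragm libraries left out. Over all genes tested 9.1% were higher and 9.25% lower, so 2 and 1 of 20 are near that share. In the MHC class I list 2 of 11 rose and 1 fell, and H2-K1 averaged 1344 ± 159.5 CPM in venous and 1290 ± 135 CPM in other blood endothelial cells without passing the test. None of 4 tested MHC class II genes passed it.

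Cell cycle genes fell at 6 of 12. Top2a, a topoisomerase of dividing cells, was at 9.97, 1.702, 0 and 0 CPM in venous and 58.1, 26.9, 21.1 and 40.9 CPM in other blood endothelial cells, and after thinning 3 genes of the list could be tested and none was called. Glucocorticoid targets and metallothioneins fell at 6 of 10, but at 2 of 10 both by DESeq2 and after thinning, and the 3 that rose were the metallothioneins Mt1 and Mt2 and Fkbp5, a cochaperone of the glucocorticoid receptor.

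**Figure D3:**
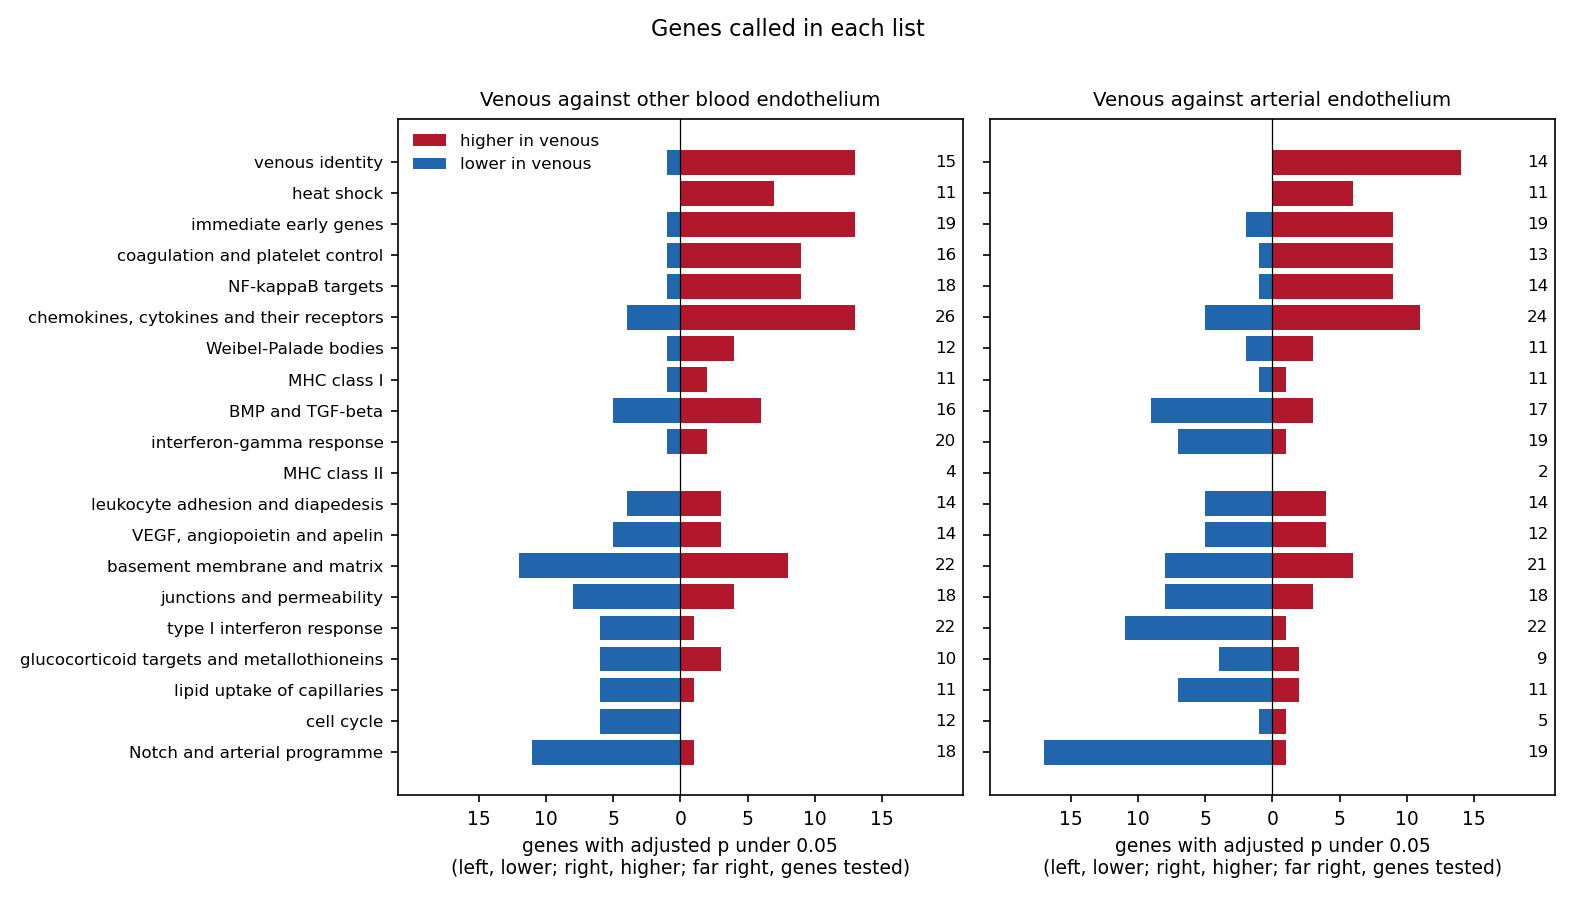
Number of genes per list with an adjusted p under 0.05, higher or lower in venous cells, against other blood endothelial cells and against arterial endothelial cells. Venous genes were higher at 13 of 15 and 14 of 14, and genes of Notch and the arterial programme were lower at 11 of 18 and 17 of 19.

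Among the 12 genes named for the largest falls were 4 globin genes. Hbb-bs was at 3.63, 11.9, 8.57 and 12.7 CPM in venous and 802, 1481, 709 and 3057 CPM in other blood endothelial cells, and Hbb-bt had 0 UMIs in venous cells and was at least 111-fold lower. In other blood endothelial cells 96.3% to 99.7% of globin UMIs came from 5 cells of each library. Fmod, Tnmd and Thbs4, genes of tenocytes, and Ogn, Igfbp6 and Fibin made up most of the rest. Thbs4 averaged 7.11 ± 9.45 CPM in venous and 265 ± 109 CPM in other blood endothelial cells, and tenocyte markers summed to 29.0, 18.7, 8.57 and 0 CPM in venous and 471, 567, 180.3 and 437.5 CPM in other blood endothelial cells. With cells that carried transcripts of other lineages left out of both groups, a choice made after seeing the data, 805 genes were higher and 730 lower. The part of globin and tenocyte transcripts in the single falls was not tested. Prnd, a prion-like protein, averaged 4.74 ± 8.31 CPM in venous and 66.8 ± 15.8 CPM in other blood endothelial cells. Hist1h1b, a histone gene of dividing cells, had 1 UMI in venous cells, a ratio of 0.0103 with a counting interval of 0.000262 to 0.0578.

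Markers of mural cells, which wrap vessels, were present in venous cells and summed to 1045, 974, 1920 and 891 CPM in mdx5cv/Ccr2-/- quadriceps, mdx5cv quadriceps, mdx5cv/Ccr2-/- diaphragm and mdx5cv diaphragm, against 574, 723, 122 and 701 CPM in other blood endothelial cells. Rgs5, a pericyte gene, was at 62.6, 226, 1260 and 12.7 CPM in venous and 312, 435, 82.2 and 209 CPM in other blood endothelial cells. It had 69, 133, 147 and 1 UMIs in venous cells of these libraries, and 97.3% of those in mdx5cv/Ccr2-/- diaphragm came from 1 cell. Of 8 tested mural genes 1 rose and 1 fell, near the 9.1% higher and 9.25% lower of all genes tested. The one that rose was Tagln, an actin-binding protein. It was at 867, 579, 231 and 853 CPM in venous and 79.1, 77.2, 11.2 and 164 CPM in other blood endothelial cells. A Tagln UMI was found in 61.6%, 62.1%, 53.3% and 46.7% of venous cells. Tagln made up most of the venous mural sum in both quadriceps libraries and mdx5cv diaphragm, and Rgs5 most of it in mdx5cv/Ccr2-/- diaphragm. With cells that carried more than 2 mural UMIs left out, also chosen after seeing the data, 860 genes were higher and 842 lower, and the part of mural transcripts in single results was not tested. Markers of T, NK and B cells, Schwann cells and mesothelium summed to at most 3.40 CPM in any venous library.

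Against 949 arterial endothelial cells, defined by at least 2 UMIs of Sema3g, Gja5 and Stmn2 and none of Ackr1 or Selp, 766 of 7333 genes were higher in venous cells (10.4%) and 784 lower (10.7%). In all 4 libraries 6.59% of these genes stood above every arterial value and 13.9% below. Both comparisons share the venous sums. All 14 tested venous genes rose, all 7 tested arterial markers fell, and 17 of 19 genes of Notch and the arterial programme fell. Hey1, an effector of Notch, was at 0.907, 3.404, 0 and 0 CPM in venous cells of mdx5cv/Ccr2-/- quadriceps, mdx5cv quadriceps, mdx5cv/Ccr2-/- diaphragm and mdx5cv diaphragm, against 153, 171, 174 and 194 CPM in arterial cells. St8sia6, a sialyltransferase, and Nebl, which binds actin, had 0 UMIs in venous cells and were at least 63.6-fold and 29.6-fold lower. Alpl, alkaline phosphatase, had 1 UMI in venous cells and 821 in arterial cells, a ratio of 0.00368 with a counting interval of 9.3e-05 to 0.0206. Tmem100 and Slc45a4 had 1 and 2 UMIs in venous cells, against 283 and 401 in arterial cells, and Hbb-bs and Hba-a2 completed the 8 largest falls.

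On the higher side Sele had 373 UMIs in venous and 2 in arterial cells, a ratio of 563 with a counting interval of 155 to 4670. Plekha7, a protein of adherens junctions, averaged 85.7 ± 19.7 CPM in venous and 2.22 ± 0.916 CPM in arterial cells (log2 fold change 5.38 ± 0.31, adjusted p = 8.83e-12). Cmah, Cadm3, Lbp, Lrg1, Slco2a1 and Bst1 were the other named rises and were also named against other blood endothelial cells. With scaling by total UMIs alone 613 genes were higher and 1106 lower, and with thinning 294 were higher and 296 lower of 2195 tested. Without mdx5cv/Ccr2-/- quadriceps 433 were higher and 381 lower, and without mdx5cv quadriceps 506 were higher and 532 lower. With both diaphragm libraries left out 977 were higher and 1005 lower.

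Some genes stood in a different place against each comparator. Vwf was at 127, 154, 129 and 118 CPM in arterial cells, between venous and other blood endothelial cells in each library. Edn1 was at 114, 97.95, 189.9 and 175 CPM in arterial cells and was lower in venous cells (log2 fold change -0.94 ± 0.17, adjusted p = 1.48e-04), while it was higher in venous than in other blood endothelial cells. Fbln5, a protein of elastic fibres, averaged 68.3 ± 18 CPM in venous cells, 20.01 ± 8.51 CPM in other blood endothelial cells and 363 ± 44.9 CPM in arterial cells, and so rose in the one comparison and fell in the other. Aplnr rose against arterial cells, at 408, 397, 231 and 293 CPM in venous and 218, 164, 111 and 149 CPM in arterial cells. Thbs1, thrombospondin 1, was at 102, 119, 351 and 102 CPM in venous and 9.49, 11.96, 8.39 and 0 CPM in arterial cells, with 78.0% of its 41 UMIs in venous cells of mdx5cv/Ccr2-/- diaphragm in 1 cell.

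The share of venous cells among venous and other blood endothelial cells was 8.02% in mdx5cv/Ccr2-/- quadriceps (95% Clopper-Pearson interval 6.83 to 9.34%) and 6.23% in mdx5cv quadriceps (4.85 to 7.86%). It was 2.69% in mdx5cv/Ccr2-/- diaphragm (1.51 to 4.39%) and 2.65% in mdx5cv diaphragm (1.49 to 4.33%). No test between groups was made, and these intervals cover counting error only. The mdx5cv/Ccr2-/- share over the mdx5cv share was 1.29 in quadriceps (interval 0.957 to 1.75) and 1.02 in diaphragm (0.463 to 2.23), so with this denominator no genotype difference was detectable at these cell numbers. After thinning every cell to 2000 UMIs these genotype ratios were 1.28 in quadriceps (0.896 to 1.85) and 0.569 in diaphragm (0.226 to 1.38), and with doublets removed 1.32 in quadriceps (0.981 to 1.79) and 1.51 in diaphragm (0.609 to 3.96), so the diaphragm ratio changed direction with thinning. Over all cells that passed the filters, venous cells were 2.22% in mdx5cv/Ccr2-/- quadriceps (1.88 to 2.595%) and 1.26% in mdx5cv quadriceps (0.976 to 1.6%), whose counting intervals do not overlap. They were 0.233% in mdx5cv/Ccr2-/- diaphragm (0.1303 to 0.3835%) and 0.119% in mdx5cv diaphragm (0.0667 to 0.197%), whose intervals overlap. A share of all cells also moves with the number of every other cell type. Among venous and other blood endothelial cells again, the diaphragm share over the quadriceps share was 0.335 in mdx5cv/Ccr2-/- mice (0.183 to 0.571) and 0.4245 in mdx5cv mice (0.225 to 0.752). After thinning the muscle ratios were 0.301 in mdx5cv/Ccr2-/- mice (0.1403 to 0.574) and 0.675 in mdx5cv mice (0.342 to 1.25). Doublet removal took out 6 of the 15 venous cells of mdx5cv diaphragm and gave muscle ratios of 0.304 in mdx5cv/Ccr2-/- and 0.266 in mdx5cv mice. Fewer venous cells in the muscle and fewer recovered in the preparation cannot be told apart.

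**Figure D4:**
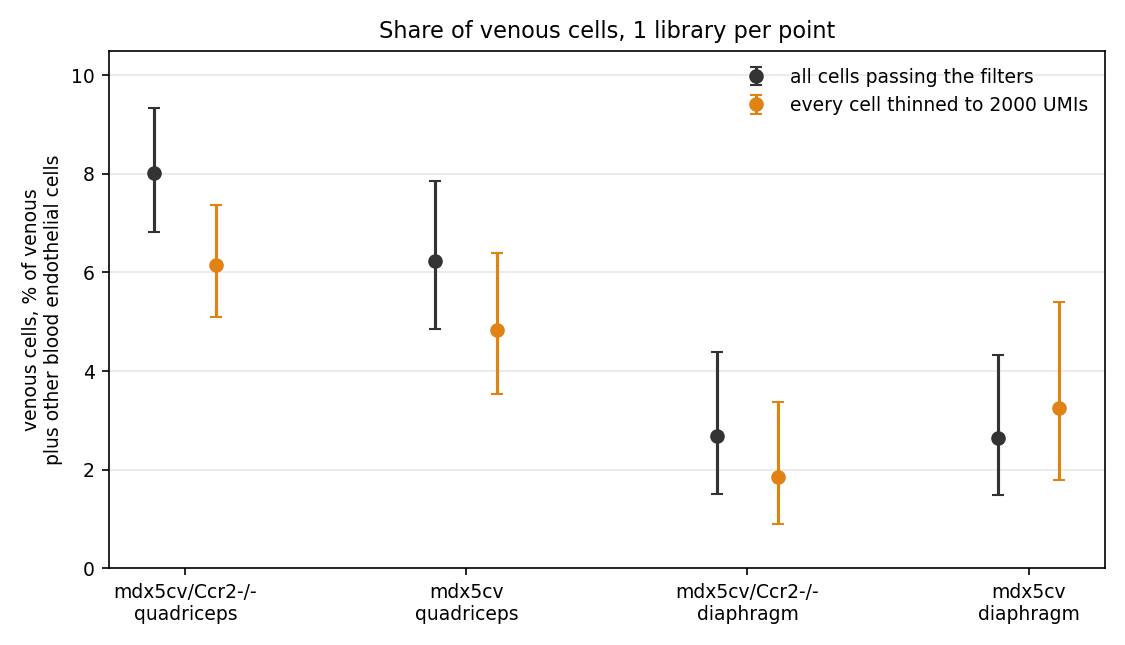
Venous cells as a percentage of venous plus other blood endothelial cells in each of the 4 libraries with 95% Clopper-Pearson intervals, for all cells and for cells thinned to 2000 UMIs. The quadriceps libraries stand at 8.02% and 6.23% and the diaphragm libraries at 2.69% and 2.65%, and the thinned mdx5cv diaphragm value is 3.26%.

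Loss of Ccr2 was compared within venous cells as a ratio of single libraries, without a test, over 4829 genes with at least 50 UMIs and a mean of at least 20 CPM. A gene was called when mdx5cv/Ccr2-/- and mdx5cv differed by 2-fold or more in the same direction in both muscles, on CPM plus 5. By this rule 3 genes were higher (0.0621%) and 5 were lower (0.104%), while in quadriceps alone 0.601% were higher and 0.414% lower by 2-fold. Fos, an immediate early transcription factor, was at 119.7 CPM in mdx5cv/Ccr2-/- and 254 CPM in mdx5cv quadriceps (ratio 0.472, interval 0.3705 to 0.601), and at 326 CPM in mdx5cv/Ccr2-/- and 1082 CPM in mdx5cv diaphragm (ratio 0.301, interval 0.1996 to 0.446). With doublets removed its log2 ratio in diaphragm was 0.64, so the direction there rests on which cells are kept. Wipi1, a protein of autophagy, was at 42.6 CPM in mdx5cv/Ccr2-/- and 15.3 CPM in mdx5cv quadriceps, and had 6 UMIs in mdx5cv/Ccr2-/- and 1 in mdx5cv diaphragm. Ctsh, a lysosomal protease, and 2510009E07Rik, the other higher genes, had 5 and 7 UMIs in mdx5cv/Ccr2-/- diaphragm, against 1 and 0 in mdx5cv diaphragm. The other lower genes, F830016B08Rik, Zfp46, Prelp and Wdfy1, had 0 to 2 UMIs in mdx5cv/Ccr2-/- diaphragm and 2 to 9 in mdx5cv diaphragm. Of the called genes, Wdfy1 alone also passed 2-fold in both muscles in other blood endothelial cells. There it was at 29.4 CPM in mdx5cv/Ccr2-/- and 64.6 CPM in mdx5cv quadriceps (log2 ratio -1.02). In diaphragm it was at 17.95 CPM in mdx5cv/Ccr2-/- and 51.3 CPM in mdx5cv (log2 ratio -1.29). These calls changed with the setting. After thinning 0 of the 3 higher and 1 of the 5 lower genes were called, and with Ackr1 alone 1 of the 3 and 0 of the 5. Only 1004 genes met the minimum level after thinning and 3482 with Ackr1 alone, so a gene not called there may not have been measured.

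None of the 14 measured venous genes reached 2-fold in both muscles. Of all 4829 measured genes only 3 higher and 5 lower did, so none of 14 is near that share. Vwf was at 745 CPM in mdx5cv/Ccr2-/- and 602 CPM in mdx5cv quadriceps (ratio 1.24, interval 1.09 to 1.41), and at 943 CPM in mdx5cv/Ccr2-/- and 624 CPM in mdx5cv diaphragm (ratio 1.51, interval 1.07 to 2.16). In mdx5cv/Ccr2-/- diaphragm 38.2% of its UMIs came from 1 cell. Sele had a ratio 0.935, interval 0.746 to 1.18, in quadriceps and a ratio 0.531, interval 0.251 to 1.103, in diaphragm. Vcam1 was at 179 CPM in mdx5cv/Ccr2-/- and 303 CPM in mdx5cv quadriceps (ratio 0.5895, interval 0.479 to 0.726), and at 308 CPM in mdx5cv/Ccr2-/- and 471 CPM in mdx5cv diaphragm (ratio 0.655, interval 0.402 to 1.06), short of 2-fold in both.

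Genes of antigen presentation and interferon response were more often lower than higher in both muscles. Of 11 MHC class I genes 6 were lower and none higher in mdx5cv/Ccr2-/- in both, with median log2 ratios of -0.237 in quadriceps and -0.099 in diaphragm, beside -0.251 and 0.061 in other blood endothelial cells. H2-K1 was at 1208 CPM in mdx5cv/Ccr2-/- and 1445 CPM in mdx5cv quadriceps (ratio 0.836, interval 0.767 to 0.912), and at 1208 CPM in mdx5cv/Ccr2-/- and 1515 CPM in mdx5cv diaphragm (ratio 0.797, interval 0.6203 to 1.03). Of 18 interferon-gamma response genes 8 were lower and 1 higher in both, and Gbp7, a guanylate binding protein, had a ratio 0.619, interval 0.496 to 0.773, in quadriceps and a ratio 0.737, interval 0.39 to 1.4, in diaphragm. Of 18 type I interferon response genes 8 were lower and 4 higher in both. Over all measured genes 15.4% were lower and 36.8% higher in both, with medians of 0.106 in quadriceps and 0.147 in diaphragm.

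Immediate early and heat shock genes had median log2 ratios, mdx5cv/Ccr2-/- over mdx5cv, of -1.192 and -0.904 in venous cells of diaphragm and of 0.03 and 0.102 in quadriceps. In both muscles 8 of 18 immediate early genes and 4 of 11 heat shock genes were lower in mdx5cv/Ccr2-/-. In other blood endothelial cells the diaphragm medians were -0.521 and -0.303. Klf2, a transcription factor that responds to flow, was at 377 CPM in mdx5cv/Ccr2-/- and 2343 CPM in mdx5cv diaphragm (ratio 0.161, interval 0.113 to 0.225), and at 819 CPM in mdx5cv/Ccr2-/- and 740.4 CPM in mdx5cv quadriceps (ratio 1.11, interval 0.985 to 1.24). In other blood endothelial cells Klf2 was at 632 CPM in mdx5cv/Ccr2-/- and 975 CPM in mdx5cv diaphragm. Hspa1b, an inducible chaperone, was at 874 CPM in mdx5cv/Ccr2-/- and 2254 CPM in mdx5cv diaphragm (ratio 0.388, interval 0.301 to 0.498). Such differences between 15 and 15 cells stand beside 16.9% of all genes higher and 8.59% lower by 2-fold in diaphragm alone.

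Between muscles, 15 genes were higher (0.311%) and 66 lower (1.37%) by 2-fold or more in diaphragm than in quadriceps in both genotypes. Within mdx5cv/Ccr2-/- mice alone 3.15% of genes were higher and 7.12% lower in diaphragm by 2-fold, and within mdx5cv mice 5.61% were higher and 14.1% lower. Ier3 was at 703 CPM in diaphragm and 142 CPM in quadriceps of mdx5cv/Ccr2-/- mice (ratio 4.94, interval 3.73 to 6.49), and at 904 CPM in diaphragm and 158 CPM in quadriceps of mdx5cv mice (ratio 5.71, interval 4.13 to 7.86). In mdx5cv/Ccr2-/- diaphragm 82.9% of its UMIs came from 1 cell, while in mdx5cv diaphragm 11 of 15 cells had a UMI. Gadd45b, a gene of the stress response, was at 180 CPM in diaphragm and 11.8 CPM in quadriceps of mdx5cv/Ccr2-/- mice, with 95.2% of its diaphragm UMIs in 1 cell, and at 153 CPM in diaphragm and 18.7 CPM in quadriceps of mdx5cv mice. Socs3, a feedback inhibitor of gp130 signalling, was at 377 CPM in diaphragm and 101 CPM in quadriceps of mdx5cv/Ccr2-/- mice (ratio 3.75, interval 2.58 to 5.36), and at 382 CPM in diaphragm and 116 CPM in quadriceps of mdx5cv mice (ratio 3.301, interval 2.07 to 5.14). In mdx5cv/Ccr2-/- diaphragm 61.4% of Socs3 UMIs came from 1 cell. Fos, Prg4, Car8, Gsn, Add3, Snrpa and Dnajb1 completed the 10 highest. Of the 15 higher genes 1 was called with Ackr1 alone, 6 with doublets removed and 2 after thinning, where only 1004 genes were measured.

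Heat shock genes were higher in diaphragm in both genotypes at 8 of 11, against 22.2% of all measured genes, with median log2 ratios of 0.126 in mdx5cv/Ccr2-/- and 1.164 in mdx5cv mice, beside 0.79 and 1.172 in other blood endothelial cells. Hspa1a, an inducible chaperone, was at 719.9 CPM in diaphragm and 495 CPM in quadriceps of mdx5cv/Ccr2-/- mice (ratio 1.45, interval 1.14 to 1.83), and at 2127 CPM in diaphragm and 558 CPM in quadriceps of mdx5cv mice (ratio 3.81, interval 3.14 to 4.603). Immediate early genes were higher in both genotypes at 7 of 18, with medians of -0.241 in mdx5cv/Ccr2-/- and 1.427 in mdx5cv mice. The mdx5cv medians of both lists rest on the 15 diaphragm cells of which doublet removal took out 6. Venous genes had medians of 0.013 in mdx5cv/Ccr2-/- and 0.149 in mdx5cv mice. Among the 10 genes named as lowest in diaphragm, led by Acta2, Hoxb7 and Nupr1, no diaphragm library had more than 3 UMIs of a gene, and 91.9% of the 99 Acta2 UMIs of mdx5cv/Ccr2-/- quadriceps came from 1 cell. Of the 66 lower genes 28 were called with at least 2 Ackr1 and Selp UMIs, 18 with Ackr1 alone and 1 after thinning. These settings measured 3983, 3482 and 1004 genes, so part of the genes not called may not have been measured.

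**Figure D5:**
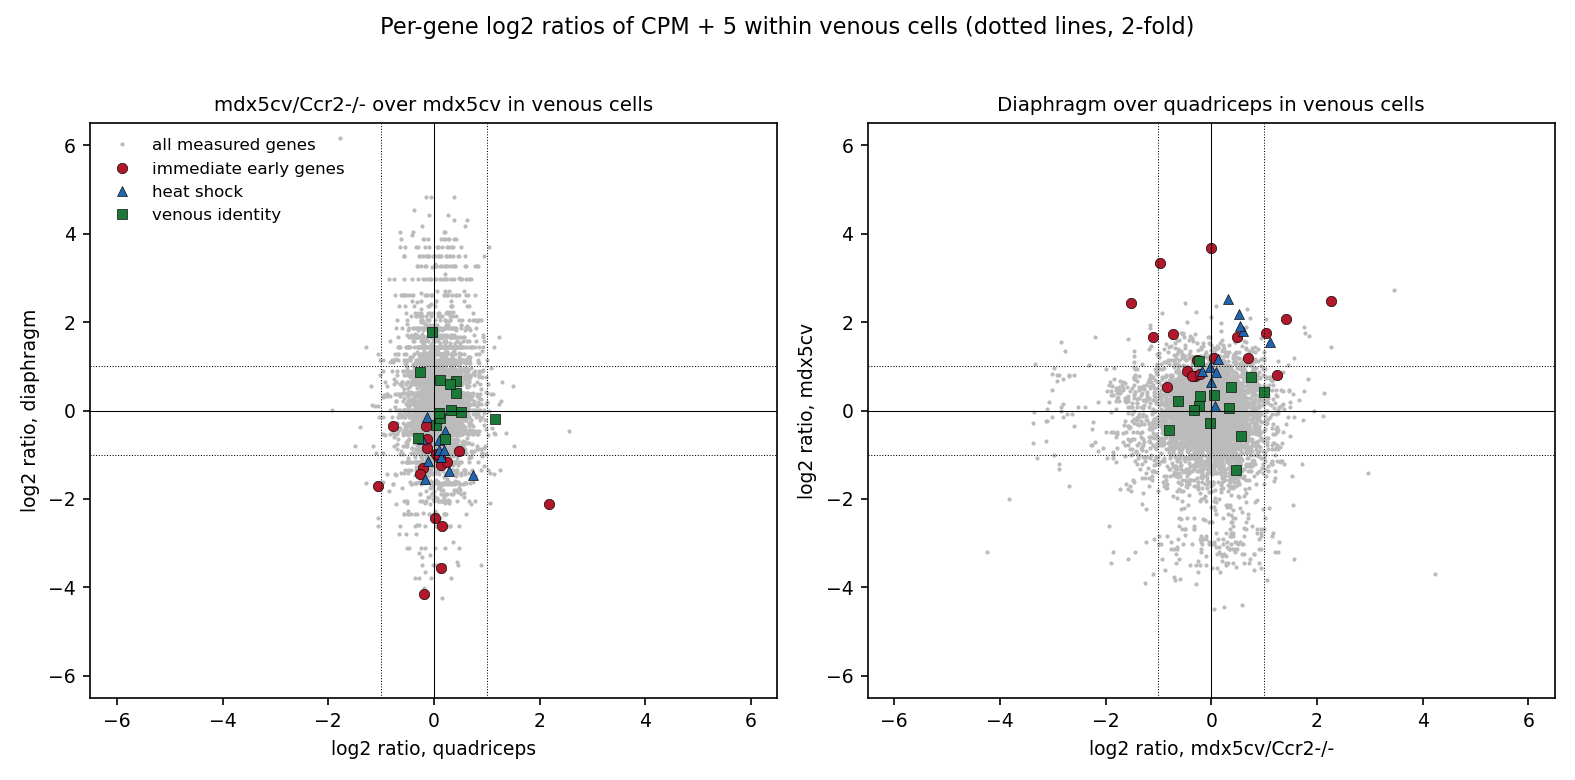
Log2 ratios of CPM plus 5 for 4829 genes within venous cells, mdx5cv/Ccr2-/- over mdx5cv in quadriceps (x) and diaphragm (y) on the left, and diaphragm over quadriceps in mdx5cv/Ccr2-/- (x) and mdx5cv mice (y) on the right. Immediate early and heat shock genes have medians of -1.192 and -0.904 on the left y axis and of 1.427 and 1.164 on the right y axis. Doublets are kept, and both y axes rest on 15 venous cells of mdx5cv diaphragm, of which doublet removal took out 6.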

How the data were processed

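Mononuclear cells were measured with 10x 3′ v3.1 libraries, 1 for each genotype and muscle. UMI counts per gene and barcode were used as the authors deposited them, and Cell Ranger 6.1.2 with mm10 is named in the submitters' processing notes. Cells, sums and statistics were computed here. The filter took barcodes from 500 UMIs and 300 genes upwards whose mitochondrial share did not exceed 15%, which left 31077 of 33554. The members and gene lists were chosen with earlier results of these data known. Some genes stand in several lists, so the counts of different lists are not independent.

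UMIs were summed per library and kind of cell and tested with edgeR 4.0.16 in R 4.3.3 (quasi-likelihood, trimmed mean scaling, low-count filter, library as block). The library pairs both sums because they come from 1 suspension. The 11 genes of the rule were left out. Each genotype in each muscle had 1 library. Genotypes and muscles were compared without a test, by ratios with exact binomial intervals at 95%, which cover counting error only. Python 3.11.15, numpy 2.4.6, scipy 1.17.1, pandas 2.3.3 and scanpy 1.11.5 were used. Doublets were kept, with their removal as an alternative.

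Named genes were the 12 largest rises and 12 largest falls (8 and 8 against arterial cells) with an adjusted p under 0.05, the same sign in every library and a mean of at least 20 CPM. For ratios they were the 10 highest and 10 lowest past 2-fold in both pairs, and list members were taken by level or change. Leaving out both diaphragms, cells with mural transcripts, or cells with transcripts of 5 other lineages were alternatives chosen after seeing the data. On simulated counts with known changes, 60.2% of 2-fold and 99% of 4-fold changes were recovered for the comparison with other blood endothelial cells (8834 genes), with 3 false calls. For arterial cells (7113 genes) these were 77.1% and 100%, with 6 false calls.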

Additional observations from a re-analysis of the deposited data

Results flagged for a closer look

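Chp2 had a log2 ratio of venous over other blood endothelial cells of 5.145 in mdx5cv/Ccr2-/- diaphragm, far above the 4.398 to 4.474 of the other 3 libraries. Fibin had a log2 ratio of -4.631 in mdx5cv diaphragm, far below the -2.095 to -1.651 of the other 3 libraries. Both genes' ratios were taken on CPM plus 5. In mdx5cv diaphragm Fibin was at 0 CPM in venous cells, where 3 counts are worth 38.2 CPM. It was at 118.9 CPM in other blood endothelial cells of that library. Every gene named in both tested comparisons was examined, and chance marks about 1 in 20 groups of this size in this way. The median log2 genotype ratio of BMP and TGF-beta genes in venous cells was 0.181 in quadriceps and -0.191 in diaphragm, with opposite signs. That of heat shock genes was 0.102 in quadriceps and -0.904 in diaphragm. Neither difference between muscles was tested.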

How the results depend on the processing

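Of the values set against alternatives, 1213 single-gene values kept their direction and side of the threshold, and 33 moved. Among counts and shares, 123 stayed near the main result and 37 counts moved. Near meant a limited fold change for a gene count, and a value inside the main counting interval for a share ratio. Thinning to 2000 UMIs left 324 higher and 349 lower genes against other blood endothelial cells and 294 and 296 against arterial cells. DESeq2 1.42.0 called 470 lower genes against other blood endothelial cells, and 499 higher and 441 lower against arterial cells. Leaving out 1 library gave 458 to 900 higher and 462 to 927 lower genes against other blood endothelial cells, and 433 to 862 higher and 381 to 831 lower against arterial cells. Without the library as replicate block 664 genes were higher and 667 lower against other blood endothelial cells, and 673 and 681 against arterial cells. Fibin then missed the threshold with the same direction, as did Ogn and Thbs4 after thinning. Genotype calls, higher and lower, were 7 and 3 with at least 2 Ackr1 and Selp UMIs, 7 and 2 with Ackr1 alone, 9 and 2 with arterial genes at 0, 8 and 3 without cells of other lineages' transcripts, 10 and 8 with a pseudocount of 1 CPM, and 70 and 32 without a minimum level. Higher genotype calls were 10 with doublets removed, 8 after thinning and 5 without mural transcripts, and lower ones were 8 with trimmed mean scaling. Muscle calls were 8 higher and 100 lower with trimmed mean scaling and 131 and 559 without a minimum level. Lower muscle calls were 103 with at least 2 Ackr1 and Selp UMIs, 126 with Ackr1 alone and 15 after thinning, of which 28, 18 and 1 were among the 66. Thinning left 1004 measured genes, against 4829 in the main setting. The Fos genotype ratio in diaphragm turned to 0.64 and its muscle ratio in mdx5cv mice to -0.12 with doublets removed, and the Dnajb1 muscle ratio in mdx5cv/Ccr2-/- mice to -0.80 with Ackr1 alone, all log2. The cause was not tested. The arterial comparison held 3 libraries with at least 2 Ackr1 and Selp UMIs, 2 with Ackr1 alone and 3 with doublets removed. The 15 venous cells of each diaphragm limit every ratio there.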
